A study of Mus musculus with 4 samples.

Results

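The integrin and laminin gene families were taken from the deposited expression table by symbol. The rule took every gene named Itga or Itgb followed by a number or by letters, and every gene named Lama, Lamb or Lamc followed by 1 digit. It found 36 genes among 54348, of which 25 encode integrin subunits and 11 encode laminin chains, and no symbol occurred on more than 1 row. The cells were sorted from the forebrains of mice killed at postnatal day 4. All mice carried PdgfraCreER, a recombinase made under the control of Pdgfra and switched on by tamoxifen, and AI14, from which recombined cells and their progeny make red tdTomato. All received tamoxifen on postnatal days 0 and 1. The control group was PdgfraCreER;AI14 (2 libraries) and the fusion group was PdgfraCreER;MN1:BEND2;AI14 (2 libraries), in which MN1:BEND2, an astroblastoma fusion gene, was added. Pdgfra marks oligodendrocyte precursor cells, but some fibroblasts make it too, so the red cells need not be of 1 type. The comparison asks how integrin and laminin transcripts differed between lineage cells with and without the fusion gene.

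Integrins are receptors that tie a cell to the matrix around it. Each is a pair of 1 alpha and 1 beta subunit, and the pair sets which ligand is bound: laminin, collagen, proteins with the RGD tripeptide such as fibronectin and vitronectin, or counter-receptors on other cells. Inside the cell, talins and kindlins bind the beta tail and switch the receptor on. Laminins are secreted trimers of 1 alpha, 1 beta and 1 gamma chain, and with nidogens, collagen IV and heparan sulphate proteoglycans they build basement membranes, which in the brain line blood vessels and the pial surface. In the oligodendrocyte lineage, integrins with the beta1 subunit bind laminin and integrins with the alphav subunit bind RGD ligands. The alphav and beta8 pair is known for releasing active TGF-beta from its latent complex.

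Values were TPM, shares of all transcripts on a scale that divides by transcript length, so levels can be compared between genes. TPM keeps no read depth, and the depth of the libraries is therefore unknown. The groups also differed in ways that reach every gene. The mitochondrial genome supplied 10.14% and 7.3% of control TPM but 48.74% and 26.25% of fusion TPM. The Y-linked gene Eif2s3y had control values of 120.6 and 121.7 TPM and fusion values of 0, so sex and genotype cannot be told apart. Bend2 was at 0 without the fusion gene and at 3.82 and 8.72 TPM with it. The median log2 change of the 12871 genes tested was -1.41, so an average gene was lower in the fusion libraries. After the libraries were rescaled to a median ratio of 1, that median was -0.15. Changes are given on the TPM scale first and after rescaling beside it, since the choice decides the direction for several members.

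Upstream sequences of 4 genes are shown because the results below turn on them: Itgb1 and Itgb7 fell on the TPM scale, and Itgb5 and Lamb1 rose after rescaling. Each is the 250 bases before the start site, 5′ to 3′ on the gene's strand, from RefSeq (GRCm38.p6), with the GC box GGGCGG or its reverse complement in capitals.
Itgb1: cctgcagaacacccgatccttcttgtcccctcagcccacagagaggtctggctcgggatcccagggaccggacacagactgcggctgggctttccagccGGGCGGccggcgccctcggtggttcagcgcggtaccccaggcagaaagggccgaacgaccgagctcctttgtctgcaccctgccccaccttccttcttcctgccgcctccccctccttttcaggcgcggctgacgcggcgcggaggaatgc
Itgb7: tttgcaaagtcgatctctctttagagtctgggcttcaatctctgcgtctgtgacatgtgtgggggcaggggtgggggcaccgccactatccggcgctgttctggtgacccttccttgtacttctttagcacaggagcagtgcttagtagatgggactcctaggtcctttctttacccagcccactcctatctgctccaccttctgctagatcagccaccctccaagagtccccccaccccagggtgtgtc
Itgb5: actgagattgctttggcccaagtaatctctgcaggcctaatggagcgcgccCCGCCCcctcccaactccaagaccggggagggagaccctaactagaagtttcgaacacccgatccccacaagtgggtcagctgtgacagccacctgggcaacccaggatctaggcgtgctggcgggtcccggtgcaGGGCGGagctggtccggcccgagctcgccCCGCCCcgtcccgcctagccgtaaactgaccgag
Lamb1: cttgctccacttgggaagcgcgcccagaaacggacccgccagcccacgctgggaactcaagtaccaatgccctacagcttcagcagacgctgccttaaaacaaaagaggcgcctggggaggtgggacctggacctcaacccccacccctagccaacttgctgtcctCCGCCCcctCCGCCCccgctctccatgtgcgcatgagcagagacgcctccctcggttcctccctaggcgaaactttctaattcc
The stretches lie at chr8:128685404-128685653 on the plus strand, chr15:102231936-102232185 on the minus strand, chr16:33829415-33829664 on the plus strand and chr12:31265043-31265292 on the plus strand. The stretch before Itgb7 held no GC box and 5 CpG dinucleotides. The others held 1 GC box and 21 CpG (Itgb1), 3 GC boxes and 18 CpG (Itgb5) and 2 GC boxes and 14 CpG (Lamb1). In the full windows of 300 bases (250 before the start site and 50 after it), the table had 25 windows for 22 of the 36 genes. Of these, 12 (48.0%) held GGGCGG on either strand, against 35.7% of all 32851 windows. TATAAA, the TATA box, was in 0 of the 25 and in 13.6% of all. These letter matches describe the windows and are not binding sites.

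Few of the genes were expressed. Of the 36, 21 stayed below 1 TPM in every library and 3 of those (Itgad, Itgb4 and Itgb6) were listed at 0 throughout. Only 13 reached 1 TPM in at least 2 libraries and were tested, 8 integrin genes and 5 laminin genes. On the TPM scale 4 of the 13 fell (Itgb1, Itgb7, Itga8 and Itga9), none rose and 9 did not pass (limma, Benjamini-Hochberg adjusted p under 0.05). Over all genes tested, 51.3% fell and 4.95% rose by the same rule, so the share that fell is below the background share. The median log2 change of the 13 was 0.07, against -1.41 for all tested genes, and 11 of the 13 lay above that median. After rescaling, 3 rose (Itgb5, Lamb1 and Lamc1), none fell and 10 did not pass, with 14.3% of all genes higher and 18.6% lower. With a correction for GC content and transcript length, 4 rose (those 3 and Itga6) and none fell, with 13.7% of all genes higher and 16.5% lower. Itga8 and Itga9 entered the test through their control values alone, so a fall was the only large change they could show. Itgb5 and Lamb1 reached the limit mainly or only in the fusion libraries. None of the 4 falls passed without control replicate 1 (adjusted p = 0.131 for Itgb1, 0.113 for Itgb7, 0.169 for Itga8 and 0.101 for Itga9, limma) or without control replicate 2 (0.222, 0.158, 0.140 and 0.105), though each kept its direction. In such bulk samples, fewer cells of a type and less RNA per cell cannot be told apart.

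**Figure D1:**
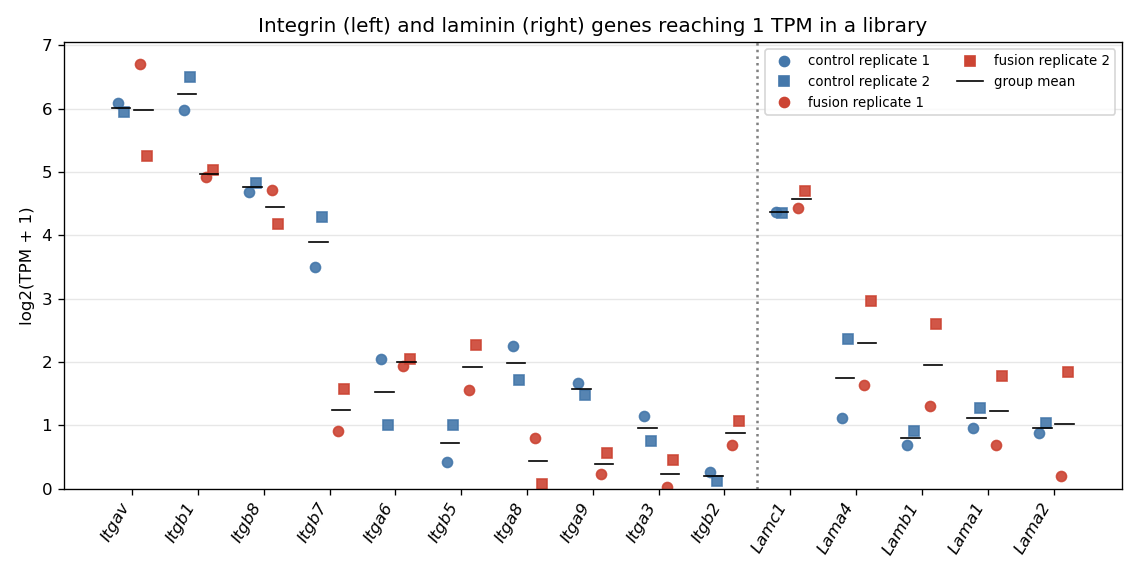
Levels of the 15 integrin and laminin genes that reached 1 TPM in a library, as log2(TPM + 1) on the vertical axis, with 1 point per library (blue control, red fusion, circles replicate 1, squares replicate 2) and a line at each group mean. Itgb1, Itgb7, Itga8 and Itga9 show both fusion points below both control points, while Itgb5, Lamb1 and Lamc1 show them above.

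Laminin gamma chains came almost wholly from Lamc1, the gamma1 chain found in most laminins. Lamc1 had control values of 19.6 and 19.4 TPM and fusion values of 20.6 and 25.0 TPM. The fusion libraries lay just above the control ones, and the log2 change of 0.21 ± 0.36 (SE) did not pass (adjusted p = 0.644, limma). After rescaling it was 1.89 ± 0.32 (SE, adjusted p = 0.0166, limma). Lamc1 thus passed only relative to the other genes, whose average was lower. Lamc3 had control values of 0.277 and 0.589 TPM and fusion values of 0.972 and 0.705 TPM.

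Among beta chains, Lamb1 was the most abundant. It had control values of 0.611 and 0.879 TPM and fusion values of 1.48 and 5.09 TPM. The groups did not overlap, but the fusion libraries were far apart, and the log2 change of 1.16 ± 0.51 (SE) did not pass on the TPM scale (adjusted p = 0.104, limma). After rescaling it passed (2.10 ± 0.47, SE, adjusted p = 0.0303, limma). Both fusion libraries lay above both control libraries in 10.2% of all tested genes on the TPM scale and in 31.3% after rescaling. On the TPM scale the log2 change of Lamb1 was 1.81 without fusion replicate 1 and 0.51 without fusion replicate 2. Lamb2, the beta2 chain of vessel and synaptic laminins, reached no more than 0.610 TPM in any library, and Lamb3, the beta chain of epithelial laminin, had control values of 0.519 and 0.0885 TPM and fusion values of 0.

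Alpha chains set which receptors a laminin binds, and 3 of the 5 were tested. Lama4, typical of vessels and mesenchymal cells, had control values of 1.17 and 4.14 TPM and fusion values of 2.12 and 6.83 TPM. Lama2, of the pial and perivascular matrix, had control values of 0.828 and 1.05 TPM and fusion values of 0.148 and 2.58 TPM. Lama1, an early basement membrane chain, had control values of 0.933 and 1.41 TPM and fusion values of 0.603 and 2.43 TPM. In all 3 the groups overlapped on the TPM scale, replicate 2 was the higher library of each group, and none passed (adjusted p = 0.506, 0.930 and 0.832, limma). After rescaling the log2 changes were 1.81, 0.75 and 1.02, again without passing (adjusted p = 0.0711, 0.424 and 0.136, limma). Lama3 and Lama5 were at 0.239 TPM or less in the control libraries and listed at 0 in the fusion libraries.

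Some markers of fibroblasts were higher in the fusion libraries. The summed level of 12 meningeal and perivascular fibroblast markers reached control values of 59.5 and 165 TPM and fusion values of 537 and 1072 TPM. Mgp, for a matrix protein that binds calcium, gave most of the fusion sums (0 and 1.34 TPM against 364 and 717 TPM). Without Mgp the sums were 59.5 and 163 TPM (control) and 173 and 354 TPM (fusion). Of the 10 tested markers 4 rose and none fell, where 4.95% of all genes rose and 51.3% fell. After rescaling 8 rose and none fell, where 14.3% of all rose and 18.6% fell. The collagen gene Col1a1 had control values of 3.78 and 9.27 TPM and fusion values of 25.9 and 51.6 TPM. Dcn had 18.9 and 66.5 TPM against 37.6 and 67.5 TPM, Slc6a13 had 4.45 and 13.99 TPM against 0.827 and 5.55 TPM, and Ogn was listed at 0 in both fusion libraries. The sum of 10 endothelial markers reached control values of 2.89 and 6.75 TPM and fusion values of 3.81 and 9.47 TPM, with Pecam1 never above 0.240 TPM. The sum of 9 pericyte and smooth muscle markers reached control values of 49.7 and 71.1 TPM and fusion values of 9.14 and 31.2 TPM. Most of the control sums was Cspg4, which is on the oligodendrocyte precursor list as well, and without it the sums were 3.96 and 2.70 TPM against 1.65 and 22.1 TPM. The part of such cells in the laminin values was not tested. The oligodendrocyte precursor list, which the lineage should carry, had summed control values of 1261 and 1616 TPM and fusion values of 453 and 578 TPM, with none of its 8 genes at 0 in both fusion libraries. On the TPM scale 5 of the 8 fell and none rose, with a median log2 change of -1.65 against -1.41 for all tested genes. After rescaling 1 rose and none fell, with a median of 0.09 against -0.15. With the correction for GC content and length none rose and 2 fell (median -0.36), where 13.7% of all genes rose and 16.5% fell.

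Itgb1, the beta1 subunit shared by most laminin and collagen receptors, fell on the TPM scale. The gene had control values of 62.0 and 89.0 TPM and fusion values of 29.2 and 31.6 TPM (75.5 ± 19.1 against 30.4 ± 1.71, SD, n = 2). Both fusion libraries lay below both control libraries, with a log2 change of -1.26 ± 0.36 (SE, adjusted p = 0.0333, limma). That change is close to the median of all genes, and after rescaling it was 0.47 (adjusted p = 0.305, limma), in the other direction. Itgb1 (ENSMUSG00000025809.15) lies on chromosome 8, 128685654 to 128733200 (GRCm38).

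Itgb7, a beta subunit best known from lymphocytes, had the largest fall of the tested members. Its control values were 10.4 and 18.6 TPM and its fusion values 0.881 and 1.96 TPM, well below them. The log2 change was -2.66 ± 0.52 (SE, adjusted p = 0.0107, limma), or -1.25 relative to the median of all genes. After rescaling it was -1.30 ± 0.46 (SE) and no longer passed (adjusted p = 0.0932, limma), and with a correction for GC content and length it was -0.81 (adjusted p = 0.193, limma). Its known alpha partners were near 0: Itga4 had at most 0.241 TPM and Itgae at most 0.768 TPM in a library. Of 12 lymphocyte markers, 7 were listed at 0 in every library, Cd3e and Cd4 among those at 0 in both fusion libraries, and the list summed to 0.705 and 0.622 TPM in the control libraries, where Itgb7 was highest. Itgb7 (ENSMUSG00000001281.10) lies on chromosome 15, 102215995 to 102231944 (GRCm38), and no other annotated gene overlaps it.

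The partners of the alphav subunit differed among themselves. Itgb8, which with alphav activates TGF-beta, had control values of 24.8 and 27.5 TPM and fusion values of 25.2 and 17.2 TPM. These values overlapped (log2 change -0.31 ± 0.39, SE, adjusted p = 0.515, limma), and after rescaling the change was 1.38 (adjusted p = 0.0802, limma). Itgb5, which with alphav binds vitronectin, was low but higher in the fusion libraries. It had control values of 0.336 and 1.02 TPM and fusion values of 1.94 and 3.84 TPM, a log2 change of 1.20 ± 0.41 that missed the threshold on the TPM scale (SE, adjusted p = 0.0547, limma). After rescaling it passed at 2.14 ± 0.37 (SE, adjusted p = 0.0176, limma), the largest rise of the 13 tested members on that scale. On the TPM scale the log2 change of Itgb5 was 1.56 without fusion replicate 1 and 0.84 without fusion replicate 2. Itgb3, the other vitronectin receptor subunit, never exceeded 0.0795 TPM, and Itgb6, of epithelia, was listed at 0.

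Itgb2, the beta subunit of leukocyte integrins, had control values of 0.200 and 0.0857 TPM and fusion values of 0.606 and 1.09 TPM and was not tested. Its alpha partners were low. Itgam had control values of 0.0230 and 0.0186 TPM and fusion values of 0.740 and 0.0273 TPM, so 1 library held nearly all of it. Itgal reached 0.434 TPM in fusion replicate 2, Itgax stayed at 0.0444 TPM or less, and Itgad was listed at 0. The 14 microglia and macrophage markers had summed control values of 142 and 58.6 TPM and fusion values of 480 and 708 TPM. Without Fcer1g, the most abundant of them, the sums were 114 and 57.4 TPM against 153 and 228 TPM. Among them, Csf1r had control values of 1.54 and 0.499 TPM and fusion values of 1.33 and 1.27 TPM, and P2ry12 was listed at 0 in both fusion libraries. The part of such cells in the Itgb2 values was not tested.

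Itgav, the alphav subunit, was the most abundant alpha subunit in every library. Its control values were 67.1 and 60.3 TPM and its fusion values 104 and 37.1 TPM. The fusion libraries fell on opposite sides of the control ones, and the log2 change was -0.03 ± 0.55 (SE, adjusted p = 0.965, limma). It was 0.70 without fusion replicate 2 (adjusted p = 0.0312, limma) and -0.76 without fusion replicate 1 (adjusted p = 0.0361, limma), passing in opposite directions, and after rescaling 1.71 with all libraries (adjusted p = 0.136, limma). The sign of the change of Itgav thus depended on 1 library and on the scale.

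Of the other RGD-binding subunits, Itga8 fell and Itga5 was hardly present. Itga8, a beta1 partner that binds fibronectin and nephronectin, had control values of 3.77 and 2.29 TPM and fusion values of 0.734 and 0.0509 TPM (log2 change -1.55 ± 0.39, SE, adjusted p = 0.0228, limma). The groups were apart on the TPM scale but overlapped after rescaling, where the change was -0.62 (adjusted p = 0.420, limma). Itga5, the main fibronectin receptor subunit, never exceeded 0.237 TPM. Itga9, a beta1 partner that binds tenascin-C and VCAM1, had control values of 2.17 and 1.80 TPM and fusion values of 0.170 and 0.479 TPM (log2 change -1.18 ± 0.27, SE, adjusted p = 0.0178, limma). After rescaling its change was -0.42 (adjusted p = 0.281, limma), with both fusion libraries still below both control libraries, as in 38.8% of all tested genes. On the TPM scale 71.1% of all tested genes had both fusion libraries below. Itga8 no longer passed without fusion replicate 2 (log2 change -1.19, adjusted p = 0.0664, limma), and Itga9 no longer passed without fusion replicate 1 (-1.01, adjusted p = 0.0538, limma).

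Laminin-binding alpha subunits were represented mainly by Itga6, known from neural progenitors and the oligodendrocyte lineage. It had control values of 3.13 and 1.02 TPM and fusion values of 2.85 and 3.13 TPM. The groups overlapped and the change did not pass on the TPM scale (log2 change 0.47, adjusted p = 0.442, limma) or after rescaling (1.64, adjusted p = 0.0628, limma). Itga3 had control values of 1.22 and 0.683 TPM and fusion values of 0.0163 and 0.360 TPM, and Itga7, of muscle and glia, had control values of 0.738 and 0.358 TPM and fusion values of 0.00496 and 0.0176 TPM. Neither was tested. The 4 collagen-binding subunits (Itga1, Itga2, Itga10 and Itga11) never exceeded 0.670 TPM. Itga11, of fibroblasts, was at 0 in both control libraries, with fusion values of 0.110 and 0.670 TPM.

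**Figure D2:**
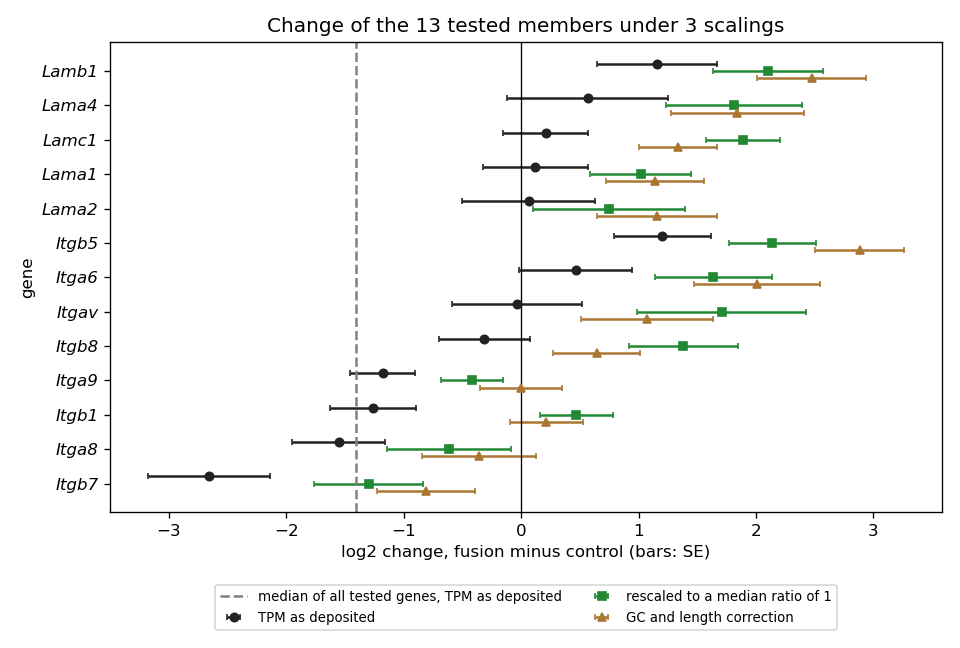
Log2 change of the 13 tested members, fusion minus control, with SE bars, for TPM as deposited (black circles), after rescaling to a median ratio of 1 (green squares) and with a correction for GC content and length (brown triangles). The dashed line marks the median change of all tested genes on the TPM scale, -1.41; Itgb7 and Itga8 lie to its left and the other 11 to its right.

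Ratios between genes within a library do not change when the whole library is multiplied by 1 factor. Quantile normalization and the GC and length correction shift genes unequally and can change them. With that correction the log2 changes of Itgb8 and Itgb1 were 0.64 and 0.22, closer together than on the TPM scale (-0.31 and -1.26). The values below are from TPM as deposited. With 2 libraries against 2, an exact permutation test cannot go below p = 0.333, so they are given as values. Itgb1 made up 63.4% and 65.3% of the summed TPM of the 8 beta subunits without the fusion gene and 50.5% and 56.8% with it. Itgb8 made up 25.4% and 20.2% without the fusion gene and 43.6% and 30.8% with it. The share of Itgb7 was 10.6% and 13.7% without the fusion gene and 1.52% and 3.53% with it, and that of Itgb5 was 0.344% and 0.746% without the fusion gene and 3.36% and 6.90% with it. The groups did not overlap in any of these 4 shares, which sum with the rest to a fixed total and so are not independent of each other. Such separation was common among the levels of all tested genes. After rescaling, both fusion libraries lay above both control libraries in 31.3% of them and below in 38.8%.

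The summed TPM of beta subunits was 97.7 and 136 without the fusion gene and 57.8 and 55.7 with it, while that of alpha subunits was 78.8 and 67.6 without the fusion gene and 108 and 44.0 with it. The fusion libraries were lower for the beta sum, and the groups overlapped for the alpha sum. Itgav held 84.4% to 95.7% of the alpha sum in each library. The ratio of Itgav to Itgb1 was 1.08 and 0.678 without the fusion gene and 3.55 and 1.18 with it, and that of Itgb8 to Itgb1 was 0.400 and 0.309 without the fusion gene and 0.863 and 0.543 with it. Both were higher in the fusion libraries. The ratio of Itgav to Itgb8, from 2.19 to 2.71 in the control and from 2.16 to 4.12 in the fusion libraries, overlapped. For laminins, the ratio of Lamc1 to Lamb1 was 32.1 and 22.0 without the fusion gene and 13.9 and 4.93 with it, so gamma1 transcripts exceeded beta1 transcripts in every library and by less in the fusion group.

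**Figure D3:**
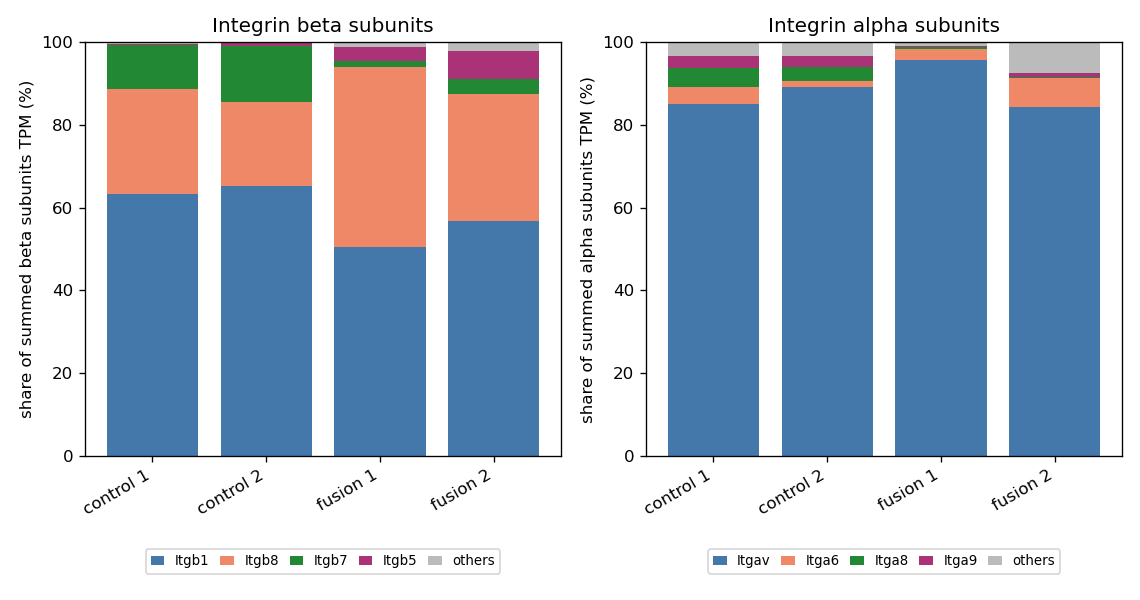
Share of each subunit in the summed TPM of the integrin beta subunits (left) and alpha subunits (right), in percent, with 1 stacked bar per library. Itgb8 and Itgb5 take a larger part and Itgb1 and Itgb7 a smaller part of the beta sum in both fusion libraries, and Itgav takes 84.4% or more of the alpha sum in every library.

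Other lists of genes around these receptors were followed as well. Of the 20 genes the rule takes from them, all but Ltbp4 lost their call on the TPM scale without control replicate 1 and without control replicate 2. Tns2 and L1cam, outside the rule and picked after their values were seen, passed with each library left out, as did Ltbp4. Tns2, L1cam and Ltbp4 entered the test through their control values alone, so a fall was the only large change they could show. Ntn4, Tgfbr2 and Thbs2, given below, entered through their fusion values alone, so for them it was a rise. The machinery that links integrins to the cytoskeleton fell at about the share of all genes. That list had 27 tested genes: 1 rose, 15 fell and the other 11 missed the threshold, with a median log2 change of -1.81 against -1.41 for all tested genes (51.3% of all fell and 4.95% rose). After rescaling 4 rose and 5 fell, with 14.3% of all genes higher and 18.6% lower. Lims1 and Lims2 encode adaptors that hold integrin-linked kinase at the membrane. Lims1 averaged 112 ± 3.40 TPM in control and 10.8 ± 5.97 TPM in fusion libraries, and Lims2 averaged 731 ± 8.29 and 33.8 ± 2.24 TPM (SD, n = 2). The tetraspanin gene Cd81, whose protein binds integrins sideways in the membrane, averaged 1964 ± 48.3 TPM in control and 120 ± 37.4 TPM in fusion libraries. These 3 also fell after rescaling (log2 changes -1.67, -2.65 and -2.29, adjusted p = 0.0234, 0.0108 and 0.0108, limma). Tgfb1i1, of the paxillin family, averaged 27.9 ± 10.2 TPM in control and 0.852 ± 1.18 TPM in fusion libraries. Rap1b, a small GTPase that promotes integrin activation, was the member that rose, from 14.7 and 16.7 TPM to 33.2 and 39.0 TPM (log2 change 1.15, adjusted p = 0.0412, limma; 0.0535 with no filter on low values). The talin gene Tln1, picked after its values were seen, had control values of 42.2 and 41.0 TPM and fusion values of 41.3 and 72.9 TPM (adjusted p = 0.446, limma), and it rose after rescaling (2.12, adjusted p = 0.0116, limma).

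Other ligands of integrins moved both ways. The test covered 15: 2 rose, 5 fell and the other 8 missed the threshold (median log2 change -0.96), where 4.95% of all genes rose and 51.3% fell. After rescaling 6 rose and 3 fell, where 14.3% of all rose and 18.6% fell. Fn1, fibronectin, went from 1.93 and 2.01 TPM in the control libraries to 65.7 and 77.1 TPM in the fusion libraries (log2 change 4.60 ± 0.38, SE, adjusted p = 0.00367, limma). Of the fibronectin receptor subunits given above, Itga5 was near 0 in all libraries. Itga8 fell on the TPM scale but did not pass after rescaling (adjusted p = 0.420, limma). Itgav, whose integrins bind RGD ligands too, was the most abundant alpha subunit. It passed neither on the TPM scale nor after rescaling (adjusted p = 0.965 and 0.136, limma). Thbs2, thrombospondin 2, was at the threshold (0.92, adjusted p = 0.0498, limma) and missed it with other pseudocounts (adjusted p = 0.0958 with 0.1 and 0.0501 with 5), with no filter (0.183), under other variance settings of limma (0.0579 and 0.0826) and with any 1 library left out (0.0574 to 0.233). Mfge8, an RGD protein bound by alphav receptors, averaged 102 ± 39.7 TPM in control and 0.782 ± 0.384 TPM in fusion libraries (SD, n = 2; log2 change -5.82, adjusted p = 0.00367, limma). Jam3, a junctional adhesion molecule, averaged 98.5 ± 8.44 TPM in control and 7.84 ± 2.34 TPM in fusion libraries, and Vcam1, a ligand of alpha4 and alpha9 integrins, 61.5 ± 7.89 and 13.1 ± 3.65 TPM. Ccn1, a matricellular protein, averaged 28.2 ± 12.6 TPM in control and 3.25 ± 0.504 TPM in fusion libraries. Of these falls, those of Mfge8 and Jam3 also passed after rescaling (log2 changes -4.50 and -1.83, adjusted p = 0.0108 and 0.0140, limma), and those of Vcam1 and Ccn1 did not.

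Partners and receptors of laminin also moved both ways. The test covered 20: 2 rose, 8 fell and the other 10 missed the threshold (median log2 change -1.03), while 4.95% of all genes rose and 51.3% fell. After rescaling 7 rose and none fell, while 14.3% of all rose and 18.6% fell. Col4a5, a collagen IV chain, went from 0.855 and 1.35 TPM to 5.43 and 10.2 TPM (log2 change 2.02 ± 0.47, SE, adjusted p = 0.0180, limma; 0.0608 with no filter on low values). Ntn4, a netrin that binds laminin gamma1, went from 0.257 and 0.312 TPM to 2.43 and 1.93 TPM (1.30 ± 0.26, SE, adjusted p = 0.0117, limma; 0.0704 with no filter). The genes that rose after rescaling were Col4a1, Col4a2, Col4a5, Nid1, Nid2, Ntn1 and Ntn4, a set named after its values were seen, whose log2 changes ran from 2.09 to 3.18. The nidogen gene Nid1 had control values of 1.03 and 4.43 TPM and fusion values of 8.26 and 13.1 TPM. Genes of the dystroglycan receptor complex and of the enzymes that put laminin-binding sugars on it were among those that fell on the TPM scale. The sarcoglycan gene Sgce averaged 146 ± 8.63 TPM in control and 18.0 ± 13.0 TPM in fusion libraries, and Sgcb, for another sarcoglycan, 42.4 ± 11.0 and 4.40 ± 0.657 TPM (SD, n = 2). Pomt1, for an enzyme that makes that sugar chain, averaged 10.9 ± 4.56 TPM in control and 0.667 ± 0.825 TPM in fusion libraries. None of these 3 passed after rescaling. Dag1, dystroglycan itself, had control values of 11.5 and 17.2 TPM and fusion values of 5.39 and 5.24 TPM and did not pass (adjusted p = 0.0531, limma).

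**Figure D4:**
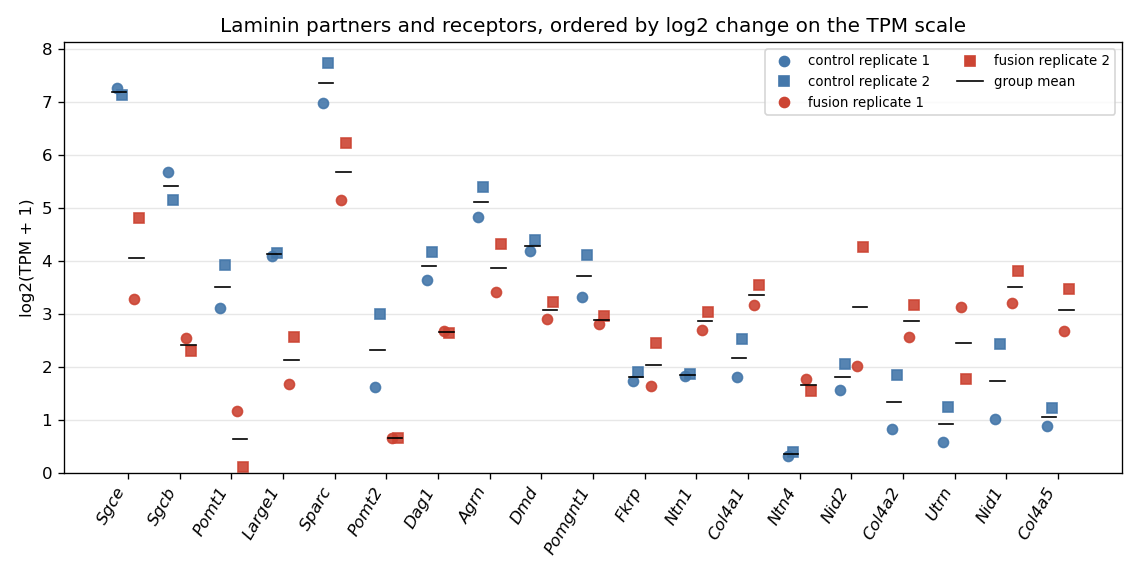
Levels of tested laminin partners and receptors, as log2(TPM + 1) on the vertical axis, with 1 point per library (blue control, red fusion, circles replicate 1, squares replicate 2) and a line at each group mean, ordered by log2 change. Sarcoglycan and dystroglycan enzyme genes stand at the left, with fusion points below control points, and nidogen, netrin and collagen IV genes at the right.

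The latent TGF-beta list, relevant to the alphav and beta8 pair, had 6 tested genes: 1 rose, 2 fell and the other 3 missed the threshold (median log2 change -1.07), against 4.95% higher and 51.3% lower over all genes. After rescaling 1 rose and 1 fell, against 14.3% higher and 18.6% lower. Tgfbr2, a TGF-beta receptor, went from 0.104 and 0.324 TPM to 2.01 and 3.24 TPM (log2 change 1.56 ± 0.31, SE, adjusted p = 0.0113, limma; 0.0683 with no filter). Ltbp4, a latent TGF-beta binding protein, had control values of 6.88 and 7.67 TPM and fusion values of 0.0478 and 0 TPM (-3.01 ± 0.33, SE, adjusted p = 0.00384, limma). These changes passed after rescaling as well (2.32 and -2.19, adjusted p = 0.0120 and 0.0116, limma). Tgfb2, a ligand, averaged 9.36 ± 2.54 TPM in control and 1.60 ± 2.02 TPM in fusion libraries (SD, n = 2) and passed on the TPM scale (adjusted p = 0.0421, limma) but not after rescaling (0.326), without mitochondrially encoded genes (0.0771), with a pseudocount of 0.1, with no filter (0.124) or without fusion replicate 1 (0.0569). Tgfb1, whose latent form the alphav and beta8 pair binds, never exceeded 0.169 TPM.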

How the data were processed

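Per the labels' protocols, pial membranes were removed, forebrains were digested in papain for 30 min, live tdTomato-positive cells were sorted, and their amplified full-length cDNA was read as 100 bp paired ends. Whether the libraries of 1 group are separate mice is not stated, and p-values therefore cover only the spread between these libraries, possibly technical. The table deposited by the authors holds TPM for 54348 genes. The submitters' processing notes list Trimmomatic 0.39, Salmon 1.8.0, GRCm38 and mm10. The gene annotation is not stated there or in the labels. Gene coordinates are those of GENCODE M21 (GRCm38), by gene identifier without its version.

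Each column was tied to the sample of the same genotype and replicate number. The test took genes with 1 TPM in 2 or more of the 4 libraries, as log2(TPM + 1), in limma 3.58.1 under R 4.3.3 (trend, 2-sided, Benjamini-Hochberg over 12871 genes, threshold 0.05). Changes of low genes are understated on that scale. The fit was tested on simulated data. Rescaling set the median ratio over 10965 tested genes, those above 0 in all libraries, to 1. The alternatives were that rescaling, other pseudocounts (0.1 and 5), other filters (none, or a mean of at least 5 TPM), quantile normalization, TPM without mitochondrially encoded genes, limma run with robust hyperparameters or with no trend, leaving out each library, and a replicate block. A loess correction for GC content and transcript length (span 0.3) was chosen after seeing the data. The members and lists were chosen with earlier results of these data known. Named genes were all members, and from each list up to 4 past the threshold with the largest change in each direction. Some genes are not reported here.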

Additional observations from a re-analysis of the deposited data

How the results depend on the processing

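TPM keeps no depth, so precision at low levels is unknown, and groups of 2 libraries are too small for a search for outlying libraries. On the TPM scale 0 members rose and 4 fell, 6 genes of the pathway lists rose and 30 fell, and 637 of all genes rose and 6606 fell (limma).

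After rescaling by median ratios, 3 members rose and 0 fell, 18 list genes rose and 9 fell, and 1846 of all genes rose and 2396 fell. With quantile normalization these counts were 3 and 0, 20 and 10, and 1948 and 1955. With the GC and length correction they were 4 and 0, 20 and 12, and 1766 and 2117. Without mitochondrially encoded genes, 2 members rose and 2 fell, and 12 list genes rose and 23 fell. Of all 12854 genes tested there, 978 rose and 5060 fell. With no filter, where 33 members were tested, 2 members fell, and 1 list gene rose and 24 fell. Of all 24923 genes tested there, 353 rose and 4586 fell. Of the 4 falls on the TPM scale, only that of Itgb7 still passed with no filter (adjusted p = 0.0414, limma). Itgb1, Itga8 and Itga9 did not pass (0.0595, 0.107 and 0.091, limma). The other member that fell was not tested under the main filter. With a mean of at least 5 TPM, where only 5 members were left, 2 members fell, and 4 list genes rose and 24 fell. Of all 7688 genes tested there, 405 rose and 4444 fell.

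The numbers 1 and 2 of the titles share only a number: deviations of same-numbered libraries had a correlation of -0.04 across genes. With the replicate block 1 member rose (Itgb5, adjusted p = 0.0302) and 3 fell, with Itgb1 at an adjusted p of 0.0523. No other member changed its call under the block. Of the 20 list genes the rule takes, Rap1b and Thbs2 lost their call under it (adjusted p = 0.0732 and 0.0675).

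With each library left out, members that rose ranged from 0 to 2 and those that fell from 0 to 4. List genes that rose ranged from 0 to 8 and those that fell from 3 to 34. Over all genes, 14 to 1084 rose and 1025 to 7987 fell. No member passed without control replicate 1 or without control replicate 2, where the lone control library is assumed to have the spread of the fusion libraries.

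Signs turned as follows. After rescaling, with quantile normalization and with the GC and length correction, the log2 change was 0.47, 0.50 and 0.22 for Itgb1, 1.71, 1.68 and 1.08 for Itgav and 1.38, 1.44 and 0.64 for Itgb8. Without mitochondrially encoded genes it was 0.53 for Itgav and 0.24 for Itgb8. Itga9 turned to 0.12 with quantile normalization and to 0.00014 with the GC and length correction. Without control replicate 1 the changes were 0.04 for Itgav, -0.04 for Lama1, -0.02 for Lama2 and -0.06 for Lama4. Itga6 ranged from -0.052 to 0.98 with each library left out, the lowest without control replicate 2. The highest of these values were 0.67 for Lama1, 0.89 for Lama2 and 1.23 for Lama4, each without fusion replicate 1. Without fusion replicate 2 they were 0.70 for Itgav, -0.43 for Lama1, -0.76 for Lama2 and -0.10 for Lama4. Lama2 was at -0.35 with a pseudocount of 0.1. Of 187 values of the 13 members over these settings, 124 kept direction and call. Of 295 values of the 20 list genes the rule takes, 220 kept both and 75 kept direction without passing. The cause of each turn was not tested.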

Other observations

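Itga2b, the alpha subunit of the platelet fibrinogen receptor, falls outside the symbol rule. It had control values of 3.87 and 1.34 TPM and fusion values of 1.46 and 2.70 TPM, which overlapped, while its partner Itgb3 never exceeded 0.0795 TPM and the platelet markers Ppbp, Gp9 and Treml1 were listed at 0 in every library.

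Spp1, osteopontin, an RGD ligand of alphav integrins made by macrophages among others, had control values of 2.16 and 1.83 TPM and fusion values of 6.74 and 51.5 TPM. It did not pass on the TPM scale (log2 change 2.75, adjusted p = 0.0545, limma) and rose after rescaling (4.08, adjusted p = 0.0246, limma).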
